A study of Arabidopsis thaliana with 4 samples.

Results

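Plates TB00 to TB49 are a block of a tiling array of Arabidopsis thaliana, a small flowering plant used as a laboratory model. Each spot of the array carries a stretch of tiled sequence, here called a tile, whose identifier gives a set of plates (TB), a plate number, a row and a column, as in TB40E11. The block was taken by identifier alone: set TB, plate numbers 00 to 49, rows A to H and columns 01 to 12, with a value on all 4 arrays. These 50 plates hold 4800 tile identifiers, of which 4786 had a score, 22.0% of the 21716 scored tiles of the array. Of the 14 tiles without a score, 10 were on plate TB48, all in odd-numbered columns of rows B, D, F and H. TB11, TB20, TB31 and TB46 lacked 1 each, also in odd-numbered columns. The 4800 identifiers had 0 matches in the RefSeq gene list of assembly TAIR10.1, so the tiles have no gene name, genome position or sequence here.

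The samples form 1 group. Chromatin of seedlings of ecotype Col-0, aged 10 days, grown in liquid medium without treatment, was immunoprecipitated with an antibody (Upstate) raised against trimethylated lysine 9 of histone H3 and hybridised together with its input chromatin. Chromatin preparations I and II were each put on 2 arrays with exchanged Cy3 and Cy5 dyes. The deposited scores of both arrays of a pair were identical for all 4786 tiles of the block in each preparation, so the 4 arrays were counted as 2 replicates. Nothing in the labels says that I and II came from separate cultures.

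Histone H3 is one of the proteins around which DNA is wound, and methyl groups on its lysine 9 are read by proteins that set how a region is packed or used. In animals the trimethylated form marks condensed, silent chromatin. In Arabidopsis that role belongs mainly to the dimethylated form, found over transposons, while the trimethylated form has been described mostly over genes in open chromatin. Immunoprecipitation averages over all cells of the seedlings, so the mark in fewer cells and less of the mark per cell cannot be told apart.

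All values are in score units, as differences from the median of the same preparation over all 21716 scored tiles. The log base and the direction of the score are not stated in the sources used here, so "high" and "low" describe the score, not the amount of the mark, and no value is a fold change. The labelled tissue could not be checked against marker genes, since no tile carries a gene name.

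The block lay slightly above all other tiles pooled, which include the stretches of low plates elsewhere on the array. Its median score was 0.096 in I and 0.079 in II, against -0.028 and -0.025 for the 16930 other tiles. The difference, block minus others, came to 0.12 in I and 0.10 in II (mean 0.11 ± 0.015, SD, n = 2). Both preparations gave the same direction, and an exact two-sided sign-flip test over the preparations gave p = 0.5, the smallest that 2 preparations allow. The lower end differed by more than the centre: the 10th percentile lay at -0.40 (I) and -0.44 (II), against -0.54 and -0.61 in the other tiles. At the 90th percentile the block reached 1.31 in preparation I and 1.06 in preparation II, against 1.21 and 0.99 in the others. Tiles between -1 and -0.5 made up 4.66% of the block and 12.6% of the other tiles.

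**Figure D1:**
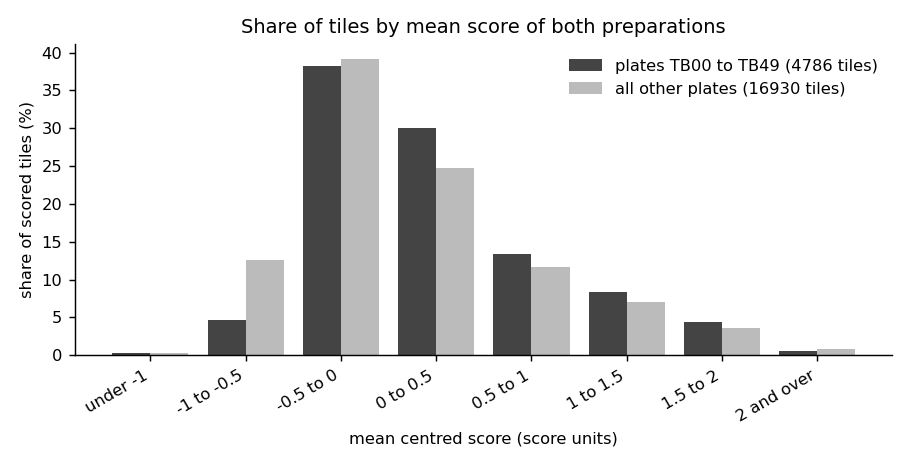
Share of scored tiles (vertical axis, %) by mean centred score of both preparations (horizontal axis, score units), with plates TB00 to TB49 in dark bars left of all other plates in light bars. The block has fewer tiles between -1 and -0.5 (4.66%, against 12.6%) and more between 0 and 0.5 (30.1%, against 24.7%).

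Of the blocks on either side in identifier order, the one before lay below it and the one after above it. The medians of TB00 to TB49, 0.096 in I and 0.079 in II, stood against 0.048 and 0.069 on plates TA60 to TA99 (block minus TA60 to TA99, 0.048 and 0.0096). Against plates TB50 to TB99, with medians of 0.19 in I and 0.17 in II, the block was lower (block minus TB50 to TB99, -0.092 and -0.094). Tiles at 1 or more made up 15.7% of TB00 to TB49 in preparation I and 11.1% in preparation II. On TB50 to TB99 these shares were 20.0% and 15.2%. At the lower end the block did not lie above TB50 to TB99: the 10th percentile was -0.40 in I and -0.44 in II, against -0.39 and -0.37 there. Against TA60 to TA99, with -0.50 in I and -0.48 in II, it was the higher in both. The exact sign-flip p was 0.5 for both medians, the smallest possible. In identifier order the block began with TB00A01 at 0.088, next to TA99H12 at -0.39, and it ended with TB49H12 at -0.27, next to TB50A01 at 0.47.

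Against the array's median, limma called 1669 tiles of the block higher and 736 lower (Benjamini-Hochberg adjusted p under 0.05 over all 21716 tiles, n = 2 preparations). Higher tiles were 34.9% of the block, where 31.6% of all tiles were called higher. Lower tiles were 15.4% of the block, where 25% of all tiles were called lower. limma gave all tiles 1 shared spread of 0.20 per preparation (SD), and the smallest mean that was called lay 0.31 from the median, so the p-values follow the size of the score. Tiles of the block at 1 or more differed more between the preparations, with I minus II averaging 0.29, against 0.046 over the other tiles of the block. The shared spread leaves this out, so the p-values of high tiles may be too small. Of the calls in the block, 69.4% were higher, a share that rests on the zero: it was 89.0% with zero set at the mode (0.18 under the median of preparation I and 0.11 under that of II), and 3.99% with the scores as deposited. Under other settings the block again had a smaller share of lower calls than all tiles. With zero at the mode the shares were 5.12% of the block and 11.6% of all tiles, at an adjusted p under 0.01 they were 9.21% and 17.7%, and when a difference of 0.5 had to be exceeded (limma treat) they were 0.501% and 1.08%. Higher calls by treat made up 17.0% of the block and 14.9% of all tiles. Without centring, 3.41% of the block was called higher and 82.0% lower, where 3.06% and 84% of all tiles were.

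By size, 641 tiles of the block (13.4%) had a mean score of 1 or more, where 11.9% of all scored tiles did. Only 13 tiles (0.272%) were at -1 or less, where the share over all scored tiles was 0.327%. Tiles at 2 or more numbered 29 (0.606%, with 0.806% over all tiles). Tiles at 0.5 or more numbered 1280 (26.7%, with 23.9% over all tiles), and tiles at -0.5 or less 236 (4.93%, with 11.2% over all tiles). The share of tiles at -0.5 or less was thus below that of the array and the share at 1 or more close to it. A short lower side was not particular to the block, since the 10th percentile of the mean score was -0.39 in the block and -0.35 on TB50 to TB99. The tiles nearest to the limit were TB40E06 at 1.001, just inside, and TB13E08 at 0.997, just outside.

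Plates of the block differed in level, with a rise at both ends. In runs of 10 plates, the median score was 0.17 on TB00 to TB09, 0.11 on TB10 to TB19, 0.0055 on TB20 to TB29, -0.0038 on TB30 to TB39 and 0.14 on TB40 to TB49. The share of tiles at 1 or more followed the same course, with 18.8%, 12.3%, 9.70%, 8.45% and 17.8%. It did so in each preparation: in I it was 20.9% on TB00 to TB09, 9.91% on TB30 to TB39 and 20.0% on TB40 to TB49, and in II these shares were 16.4%, 6.26% and 14.8%. At the lower side the 5 groups of plates differed less, with 10th percentiles between -0.44 and -0.33.

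Plate TB08 had the highest median in both preparations (0.54 in I and 0.51 in II), and 31 of its 96 tiles (32.3%) were at 1 or more. TB07 followed with a median of 0.41 in the mean of both preparations, TB03 with 0.38, TB45 with 0.33 and TB10 with 0.28. TB03, TB07, TB08 and TB45, the 4 plates with the highest medians, together held 116 of the 641 high tiles. On TB03 31.25% of tiles were at 1 or more, on TB07 30.2% and on TB45 27.1%. The share was 13.4% in the block and 11.9% over all scored tiles. These plates were picked by the same scores, so their high shares follow largely from the choice. The lowest plate was TB25, with -0.25 in preparation I and -0.46 in preparation II, the lowest of the 50 in both. The next lowest were TB37 at -0.20, TB35 at -0.14, TB23 at -0.13 and TB38 at -0.12. Between 36 plates above 0 in both preparations and 11 below 0 in both, 3 plates changed side between the preparations.

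No plate of the block was without a tile at 1 or more, while 27 of the 181 other plates were. Those 181 include the stretches of low plates, and the neighbouring blocks were not counted apart. The number ran from 1, on TB28 and on TB38, to 31 on TB08, with a median of 12.5 per plate. Plate medians of the preparations correlated with Pearson's r = 0.91 and Spearman's rho = 0.92 across the 50 plates, which share the arrays. Differences between plates made up 8.14% of the variance among tiles of the block and 21.4% among the other plates, which include the stretches of low plates elsewhere on the array.

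**Figure D2:**
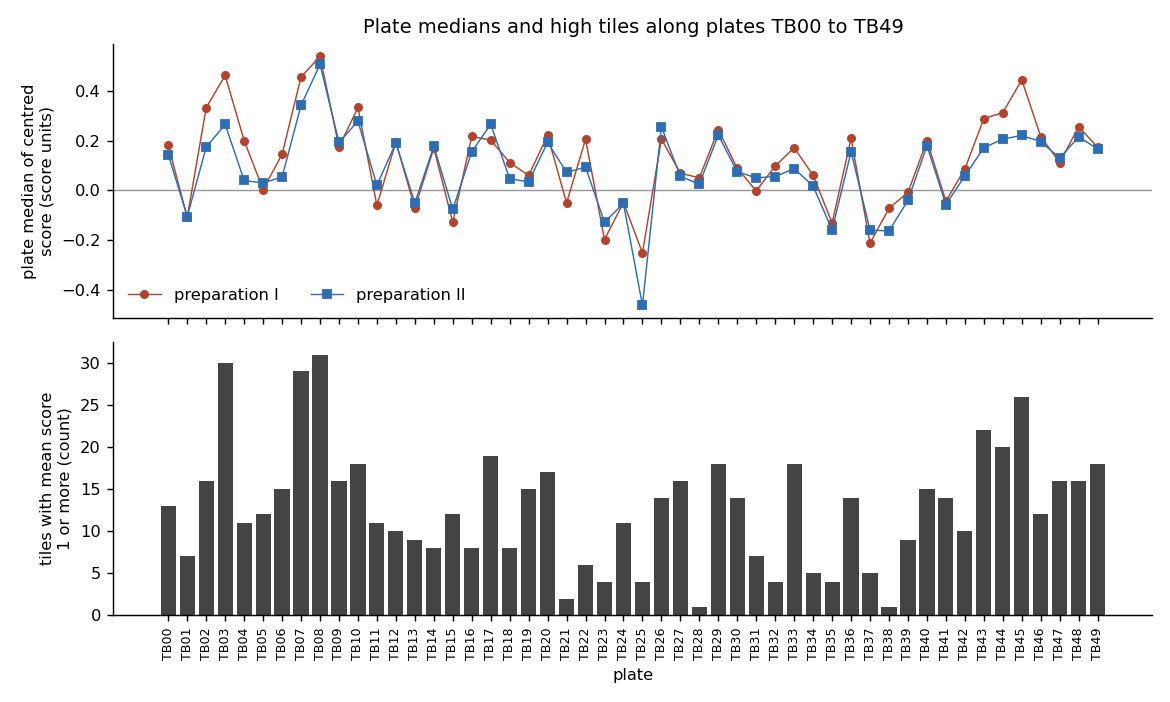
Upper panel: median centred score (vertical axis, score units) of each plate from TB00 to TB49 in preparation I (circles) and preparation II (squares). Lower panel: count of tiles with a mean score of 1 or more on each plate. TB08 is highest in both preparations, TB25 is lowest in both, and the counts run from 1 (TB28 and TB38) to 31 (TB08).

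The highest score of the whole array was that of tile TB40E11, with 4.22 in preparation I and 4.49 in preparation II (mean 4.35 ± 0.19, SD, n = 2). TB40C07, also on plate TB40, was second on the array, with 3.61 in preparation I and 3.58 in preparation II (mean 3.59 ± 0.014). The highest tile outside the block had a mean of 2.63. The third tile of the block, TB45C02, had 2.90 in preparation I and 2.15 in preparation II (mean 2.53 ± 0.53), and ranked eighth on the array. TB05B03 had a mean of 2.41 ± 0.24, TB27E09 of 2.31 ± 0.24 and TB45A02 of 2.29 ± 0.16. TB07E10, TB11F08, TB10D07 and TB07F10 closed the 10 highest, with means between 2.28 and 2.24. All 10 were called higher by limma, with adjusted p values up to 1.25e-53. They are extremes of the same scores that limma tested, so the calls add nothing to their rank.

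TB40E11 stood apart from its neighbours. The tiles TB40E09, TB40E10, TB40E12 and TB40F01 around it had means of 0.087, 0.065, -0.039 and 0.056. TB40C07 had a high tile on 1 side only: TB40C06 before it was at 1.39 and TB40C08 after it at 0.095. Around TB45C02 the score changed more gradually, with 0.51 on TB45C01 before it, 1.69 on TB45C03 and 0.61 on TB45C04 after it. Of the 10 highest tiles, 9 had an adjacent tile at 1 or more, and TB40E11 was the exception. Among the 29 tiles at 2 or more, 25 had such a neighbour. The other 4 were TB40E11, TB40D11, TB21F03 and TB49A09, named after their values were seen.

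TB40D11 sits in the well next to TB40E11 in column 11 of the plate, 12 places earlier in identifier order. It scored 2.00 in preparation I and 2.20 in preparation II, between neighbours at -0.052 (TB40D10) and -0.27 (TB40D12). It was the only tile of the block at 1 or more with both neighbours below 0. With the neighbours allowed up to 0.1, TB40E11 and TB35F10 (mean 1.48) joined it. In the rest of column 11 of plate TB40, the means were -0.19 on TB40A11, 1.55 on TB40B11, 0.061 on TB40C11, 0.95 on TB40F11, 0.33 on TB40G11 and 0.12 on TB40H11. TB40D11 and TB40E11 also scored higher in preparation II than in preparation I, by 0.20 and 0.27. Of the 29 tiles at 2 or more, 25 scored higher in preparation I, and the other exceptions, TB03G07 and TB07E01, differed by 0.028 and 0.029. Whether the position of these wells on the plate has a part in their scores was not tested.

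**Figure D3:**
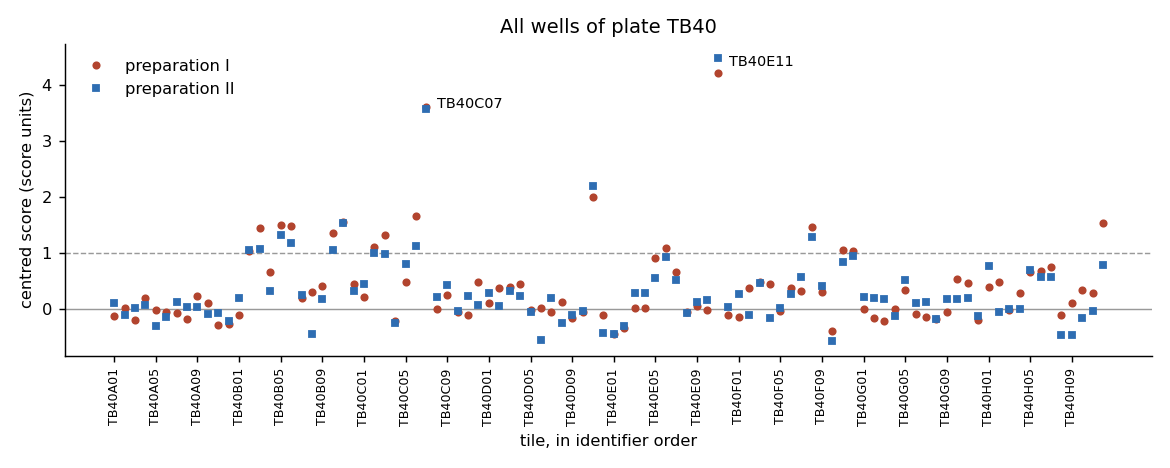
Centred score (vertical axis, score units) of every well of plate TB40 in identifier order (horizontal axis), in preparation I (circles) and preparation II (squares). The dashed line marks 1. TB40C07 and TB40E11 lie above 3 in both preparations, and the next highest, TB40D11, has a mean of 2.10.

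At the other end, tile TB33C10 was the lowest of the block, with -1.38 in preparation I and -1.55 in preparation II (mean -1.46 ± 0.11, SD, n = 2). TB19C12 had a mean of -1.18 ± 0.13 and TB19G08 of -1.17 ± 0.0071. TB09F05 (-1.15), TB34D07 (-1.11), TB17A12 (-1.07), TB26E04 (-1.05), TB28E03 (-1.04), TB23E09 (-1.03) and TB35H10 (-1.03) completed the 10 lowest. All 10 were called lower by limma, with adjusted p values up to 3.18e-12. These too are extremes of the scores that limma tested, so the calls add nothing to their rank. TB34D07 rested mainly on preparation II, with -0.78 in I and -1.43 in II, and the lowest tile outside the block had -1.78.

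Tiles at -1 or less seldom followed each other, but most lay beside another low tile. The 13 tiles at -1 or less lay on 9 plates and formed 11 runs, the longest of which were the pairs TB17A11 to TB17A12 and TB28E03 to TB28E04. Only 4 of the 13 had both neighbours above -0.5. The neighbours of TB33C10, TB33C09 and TB33C11, were at 0.031 and -0.41. TB19C12 lay among other low tiles, with -0.40 on TB19C11 and -0.65 on TB19D01. TB19G08 stood beside a high stretch: TB19G07 before it was at 0.50, TB19G09 after it at 1.76 and TB19G10 at 1.68. The step between TB19G08 and TB19G09 was the same way in both preparations, with -1.17 and 2.01 in I and -1.18 and 1.52 in II.

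High tiles came in stretches of a few tiles. The 641 tiles at 1 or more fell into 317 runs without a break in the identifiers. These runs averaged 2.02 tiles, against 2.07 on the other plates. Single tiles made up 140 of the runs, 103 runs held 2 tiles, and 74 runs of 3 or more held 295 of the high tiles (46.0%, against 50.5% among the other plates). Runs of 7 or more numbered 3 of the 317 in the block and 18 of the 937 elsewhere. The tiles of the single runs had a median of 1.25 and the tiles of runs of 3 or more a median of 1.497.

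The run from TB07H03 to TB08A10 was the longest of the block, with 20 tiles, and the longest on the other plates held 16. Its scores ran from 1.07 to 2.32 in preparation I, with a median of 1.81, and from 1.05 to 2.06 in preparation II, with a median of 1.58. Every tile of the run was at 1 or more in each preparation, and 15 of the 20 had a mean of 1.5 or more. It began with TB07H03 at 1.07, TB07H04 at 1.46, TB07H05 at 1.52, TB07H06 at 1.87 and TB07H07 at 1.498. TB07H08 followed at 1.34, TB07H09 at 1.75, TB07H10 at 1.83, TB07H11 at 1.24 and TB07H12, the last well of plate TB07, at 1.68. The score thus rose over the first 4 tiles and then stayed between 1.24 and 1.83 up to the end of the plate. On the next plate, TB08A01 was at 1.78, TB08A02 at 1.94, TB08A03 at 1.87, TB08A04 at 1.60 and TB08A05 at 1.84. TB08A06 had 1.64, TB08A07 had 1.93, TB08A08 had 1.95, TB08A09 had 1.70 and TB08A10 had 1.71. The 2 plates joined without a step, at 1.68 and 1.78.

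The approach to this run was gradual and its end abrupt. The tiles before it, TB07G12, TB07H01 and TB07H02, were at -0.11, 0.43 and 0.74. Directly after it, TB08A11 was at 0.40 (0.31 in preparation I and 0.48 in preparation II), and then TB08A12 and TB08B01 were at 1.61 and 1.47. Counted across this single lower tile, 22 of the 23 tiles from TB07H03 to TB08B01 were at 1 or more. TB08B02 at 0.56 and TB08B03 at -0.14 ended the stretch.

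**Figure D4:**
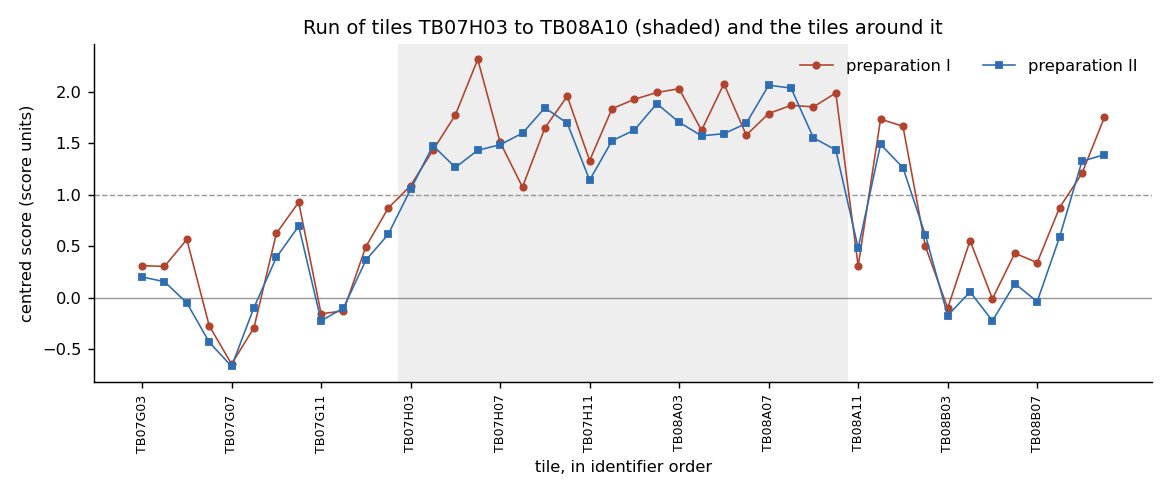
Centred score (vertical axis, score units) of the run TB07H03 to TB08A10 (shaded) and the 12 tiles on either side in identifier order (horizontal axis), in preparation I (circles) and preparation II (squares). The dashed line marks 1. All 20 shaded tiles lie above it in both preparations, and TB08A11 after the run is at 0.31 in I and 0.48 in II.

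The other runs held at most 7 tiles. TB03B10 to TB03C04 and TB17C07 to TB17D01 held 7 tiles each, with mean scores of 1.491 and 1.502. Tied at 6 tiles were TB03E02 to TB03E07 (mean 1.57), TB08G04 to TB08G09 (1.53), TB19F01 to TB19F06 (1.71), TB26B07 to TB26B12 (1.61) and TB29F05 to TB29F10 (1.37). Outside a run the score dropped within 2 tiles. Around the 71 runs of 3 to 6 tiles, the first tile outside had a median of 0.51 (quartiles 0.26 and 0.70), the second 0.14 (quartiles -0.087 and 0.40) and the third 0.11. Around single tiles the first neighbour had a median of 0.54 and the second of 0.14. These first neighbours are below 1 by the way runs are defined.

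The longest stretch of the block with every mean score below 0 ran from TB24G07 to TB25D03, over 57 tiles, and was named after its values were seen. The next longest, TB35A01 to TB35B12, held 24 tiles. In TB24G07 to TB25D03 the scores ran from -0.85 to 0.17 in preparation I, with a median of -0.33, and from -0.86 to -0.067 in preparation II, with a median of -0.56. All 57 tiles were below 0 in preparation II and 56 in preparation I, with no tile at -1 or less. limma called 47 of the 57 lower, where 15.4% of the block and 25% of all tiles were called lower. The stretch was picked for mean scores below 0, so these counts add no support to it. The preparations differed here: preparation I was above preparation II at 52 of the 57 tiles, by 0.25 ± 0.20 on average (SD across tiles), where the block as a whole averaged 0.078. Before the stretch TB24G06 was at 0.52, and after it TB25D04 was at 0.068.

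**Figure D5:**
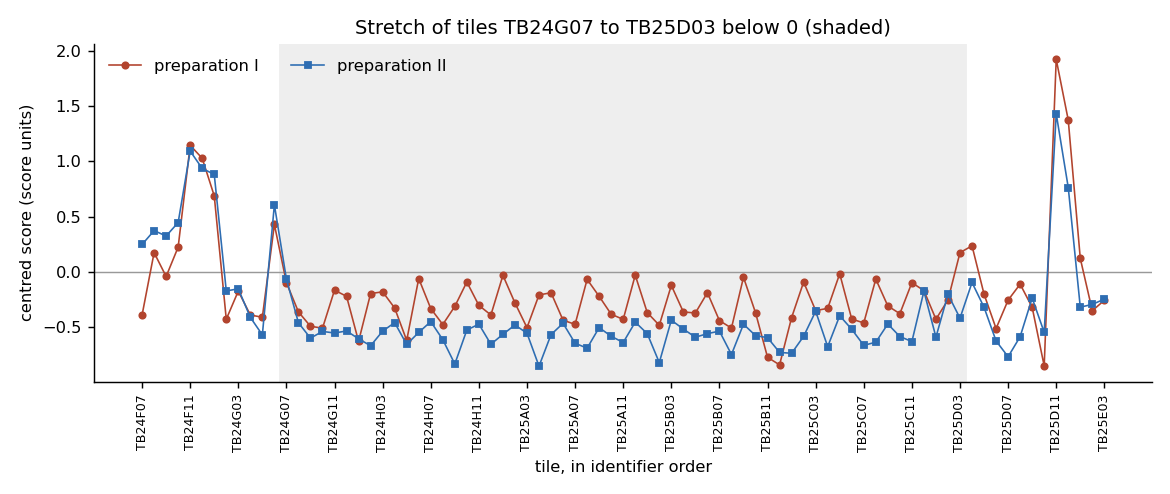
Centred score (vertical axis, score units) of the 57 tiles TB24G07 to TB25D03 (shaded) and the 12 tiles on either side in identifier order (horizontal axis), in preparation I (circles) and preparation II (squares). Preparation I lies above preparation II at 52 of the 57 shaded tiles, with medians of -0.33 and -0.56.

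Other long stretches held no tile with a mean of 1 or more. From TB37H09 to TB38H11, 99 consecutive tiles stayed below 1, with a mean of -0.026 in preparation I and -0.13 in preparation II, and 1 of them reached 1 in preparation I alone. From TB32A09 to TB32H04, 80 tiles stayed below 1 in both preparations, with means of 0.057 and 0.0015. The following stretches, TB18D03 to TB19B06, TB13D09 to TB14B11 and TB27F08 to TB28D09, held 76, 75 and 74 tiles. The average score of these 5 stretches lay between -0.076 and 0.076, but parts of them were low: TB18G07 to TB18H10, inside TB18D03 to TB19B06, held 16 tiles below 0 with a mean of -0.49, and TB38F06 to TB38G09, inside TB37H09 to TB38H11, held 16 with a mean of -0.24. They too were picked once their values had been seen.

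The profile of the block repeated between the preparations. Across the 4786 tiles, which share the arrays, r was 0.91 (Pearson) and rho 0.87 (Spearman), and 82.8% of tiles lay on the same side of the median in both. A score of 1 or more was reached by 779 tiles in at least 1 preparation and by 501 in both, 10.5% of the block, where 9.48% of all scored tiles were. Preparation I alone had 249 of the rest and preparation II alone 29. High tiles scored higher in preparation I: the difference, I minus II, averaged 0.29 ± 0.27 over the 641 tiles at 1 or more and 0.046 ± 0.26 over the other 4145 (SD across tiles), and it was above 0 at 546 of the 641. It exceeded 0.5 in size at 375 tiles (7.84%), with preparation I the higher at 330 of them. The 16930 tiles outside the block leaned the same way, but less strongly: I minus II averaged 0.066 over them and 0.078 over the block. Outside the block the difference exceeded 0.5 in size at 1188 tiles (7.02%), with preparation I the higher at 930 of these. There, 2304 tiles reached 1 or more in at least 1 preparation, 642 of them in preparation I alone and 104 in preparation II alone. On the same side of the median in both preparations lay 86.3% of the tiles outside the block, slightly more than in the block.

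The 5 tiles with the largest differences were all higher in preparation I. TB03D08 had 0.75 in preparation I and -0.44 in preparation II, and TB34E02 had 0.45 and -0.70; neither passed the limma test, with adjusted p values of 0.354 and 0.459. The tile after TB34E02, TB34E03, differed likewise, with 0.28 in preparation I and -0.71 in preparation II. TB16A09 had 2.38 and 1.32, TB15F09 had 1.73 and 0.70, and TB22D07 had 1.73 and 0.71, all on the same side in both preparations. A difference between preparations at a single tile has no test here, since each gave 1 value per tile.

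Adjacent tiles of the block had like scores. Across 4771 pairs of consecutive scored tiles, which share plates and arrays, r was 0.63 (Pearson) and rho 0.62 (Spearman). The correlation was 0.33 at a distance of 2 tiles, 0.20 at 3, 0.13 at 6, 0.053 at 12, 0.085 at 24, 0.026 at 48 and 0.024 at 96. Between a tile in preparation I and the next tile in preparation II it was 0.59. The difference between the preparations was itself alike in neighbours, with r = 0.30 for the next tile, 0.14 at 2 tiles and 0.032 at 3. In column order, in which neighbouring wells of a column follow each other, r was 0.041.

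Small differences followed the row of a tile on its plate and whether the plate number was even. Rows B, D, F and H had a median of 0.16 in preparation I and 0.10 in preparation II, and rows A, C, E and G of 0.024 and 0.057. Row by row this grouping did not hold in preparation II, where rows B and H (0.065 and 0.064) lay below rows A and C (0.083 and 0.088). The 4 rows B, D, F and H together were the higher on 38 of the 50 plates in preparation I and on 29 in preparation II. Row F had the highest median of the 8 rows (0.19 in the mean of both) and row E the lowest (0.0016). Even-numbered plates had a median of 0.17 in preparation I and 0.13 in preparation II, and odd-numbered plates of 0.015 and 0.020. The even plate was the higher in 18 of 25 pairs with the odd plate after it. Even minus odd plates thus gave 0.15 (I) and 0.11 (II), close to the gap between the block and the other tiles, and its part in the plate medians above was not tested. Both contrasts had the same direction in the tiles outside the block. There, rows B, D, F and H minus rows A, C, E and G gave 0.060 (I) and 0.035 (II). Even minus odd plates gave 0.062 and 0.097 there.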

How the data were processed

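Genomic DNA of immunoprecipitated and input chromatin was hybridised in 2 colours on 4 arrays after amplification, per the labels' protocols. The authors deposited 1 signed score per feature and array; its background correction, normalization, log base, centring and direction are not given in the sources used here. Of 21800 features, 39 have no plate-and-well identifier and no score. Both columns of a dye-swap pair were averaged, and each preparation was centred on its median over all 21716 scored tiles (-1.09 in I and -1.35 in II as deposited). No tile was filtered on weak signal, since brightness was not analysed here, and the number of arrays limits the precision.

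The mean of both preparations was tested against 0 over all tiles with limma 3.58.1 (R 4.3.3; lmFit, eBayes, two-sided, Benjamini-Hochberg). The step was also run on simulated independent normal values of the fitted spread, with some tiles moved by known amounts. Neighbouring tiles of the array correlate, so that run checks the procedure and not the calls made here. With 1 residual degree of freedom the prior was infinite, so all tiles shared 1 spread. The spread behind each p-value is that between the 2 preparations alone, which may be technical. Counts and percentiles used numpy 2.4.6, pandas 2.3.3 and scipy 1.17.1.

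Tiles named were the 10 highest and 10 lowest means, the neighbours of the 3 highest and 3 lowest, the tiles of the longest run, the ends of the 5 longest runs (with ties, 8), the 5 largest differences between preparations, and the 5 highest and 5 lowest plates; any other tile, stretch or grouping of plates or rows was named after its values were seen. The block, the lists and the rules were chosen with earlier results of these data known. Alternatives changed the centring, scaling, variance model, thresholds, order of wells, sign and preparations used.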

Additional observations from a re-analysis of the deposited data

How the results depend on the processing

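Higher calls by limma in the block (1669) stayed within 1.5 times that number at an adjusted p under 0.01, with zero at the mode, with equal scaling and with limma's trended robust variance. They were 163 without centring and 812 when a difference of 0.5 had to be exceeded (limma treat). Lower calls (736) were 245 with mode centring, 3925 without centring, 24 with treat and 441 at an adjusted p under 0.01. The 641 tiles at 1 or more and 13 at -1 or less became 1280 and 236 at a size of 0.5, and 242 and 0 at a size of 1.5. With all signs turned they were 13 and 641, by construction. With mode centring 801 tiles were at 1 or more and 4 at -1 or less. Leaving out 1 preparation gave 530 to 750 tiles at 1 or more and 11 to 14 at -1 or less. The block's median stayed above that of the other tiles, by 0.087 with fully scored plates only, 0.12 with means in place of medians, and 0.10 to 0.12 in a single preparation. The longest run, 20 tiles, was 20 in each preparation alone and in both together, 21 and 11 when the limit was 0.5 and 1.5, and 4 in column order. Adjacent tiles correlated with 0.63 in the mean, with 0.61 to 0.62 when either preparation was left out, with 0.60 once plate medians were removed and with 0.041 in column order. Trimming 5% of tiles at either end lowered the correlation between preparations to 0.86. The 20 highest and lowest tiles kept their sign in each preparation alone, which their selection had fixed. Their means were at 1 or more or at -1 or less. The preparations differed by at most 1.2 at any tile of the block, so no sign could change. No limma test is possible with 1 preparation. No paired analysis was possible because the series has 1 group.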

Other observations

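Within the stretch TB24G07 to TB25D03, preparation I came close to the array's median at intervals. It rose above -0.1 at 10 tiles that stood above both neighbours, among them TB24H06 at -0.063, TB25A01 at -0.033, TB25A12 at -0.032 and TB25C05 at -0.019, with 3 to 9 tiles from each to the next. Preparation II was between -0.69 and -0.40 at these tiles. Over distances of 1 to 20 tiles, the correlation of a tile with a later one in preparation I changed sign repeatedly, with -0.46 at 2 tiles, 0.29 at 3, 0.30 at 4, -0.38 at 5, 0.39 at 7, 0.36 at 14, -0.45 at 15, -0.46 at 16, 0.40 at 17 and -0.53 at 19 (56 pairs at 1 tile, 37 at 20), and gave no single interval. In preparation II the values were smaller at these distances. They had the same sign (0.23 at 3 tiles, -0.26 at 5 and 0.20 at 17, but only -0.022 at 15), except at 14 tiles (-0.096). At the distances not listed, the signs were alike at some and opposite at others. Both preparations correlated with Pearson's r = 0.36 across the 57 tiles, which were chosen for low scores. The pattern was noticed in these scores and has no separate support.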
